A study of Sus scrofa with 6 samples.

Results

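Probe sets for 8 genes best known from neurons, NPY, PENK, VSNL1, KCNIP4, KCNK1, GABRB2, RIMS2 and LRRTM4, were read in aortic valve leaflets of male and female pigs. All probe sets that the array annotation or the study's own supplementary list of sex-differing probe sets names for these genes were taken, giving 9 probe sets for 8 of the 6860 genes named by either source. The study's list names 8 of the 9 probe sets, and for PENK, GABRB2, RIMS2 and KCNK1 the name comes from that list alone. What those 4 probe sets hybridize to was not checked here. That list was made from differences between the sexes on these same arrays, so the male minus female values of the 8 genes are given as a description, with no test.

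NPY and PENK are precursors of peptide transmitters. Neuropeptide Y is stored in sympathetic nerves together with noradrenaline and constricts vessels, and proenkephalin is cut into the enkephalins, ligands of opioid receptors. VSNL1 (visinin-like protein) and KCNIP4 belong to the neuronal calcium sensor proteins, small proteins that change shape on binding calcium, and KCNIP4 is also an auxiliary subunit of Kv4 potassium channels. KCNK1 (TWIK-1) is a potassium leak channel with tandem pore domains. GABRB2 is a beta subunit of the GABA-A receptor, a chloride channel opened by the inhibitory transmitter GABA. RIMS2 is a scaffold of the presynaptic active zone that links vesicles to calcium channels, and LRRTM4 is an adhesion protein of the postsynaptic membrane. Heart valve leaflets consist mostly of interstitial cells in matrix, covered by endothelium, and they receive autonomic and sensory nerve fibers.

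The arrays held leaflet RNA of 3 castrated male and 3 female pigs, 1 pig per array, all 5 months old and about 90 kg, with the endothelium scraped off the leaflets before extraction. Sex and castration cannot be told apart in this comparison, since every male was castrated. Values are log2 expression after RMA, which sets each array to a common distribution. RMA gives no call of presence or absence, and levels of different probe sets cannot be set against each other, so a value is called low here when it is under the 25th percentile of its own array (5.46 to 5.58). With 3 against 3 arrays an exact permutation test cannot go under 0.1.

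The arrays were alike in scale, with medians between 7.33 and 7.38. Female 3 stood apart in RNA quality. The 3′ minus 5′ difference of the GAPDH control probe sets, which grows with RNA degradation, was 1.84, 1.78 and 2.14 in males 1, 2 and 3, against 2.13, 1.80 and 2.69 in females 1, 2 and 3. For the EF1A control it was 1.28 to 1.46 in males and 1.38, 1.42 and 2.57 in females, the last again in female 3. For the actin control it was 2.55, 2.35 and 2.57 in males, against 2.95, 2.84 and 3.80 in females, higher in every female. The part of RNA quality in the differences below was not tested.

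NPY and VSNL1 had the widest differences of the 8 genes. On the probe set of the study's list NPY read 10.18, 10.52 and 9.07 in males, against 6.11, 6.12 and 4.37 in females. Every male was at least 2.95 above every female, with female 3 far under the other females and male 3 under the other males. The means were 9.92 ± 0.76 in males and 5.53 ± 1.00 in females (SD, n = 3 each), a log2 difference of 4.39 (21.0-fold), and 3.81 (14.0-fold) without female 3. In whole leaflets, fewer cells of a type and less RNA per cell cannot be told apart for this or any other gene here.

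A further probe set that the annotation gives to NPY is not on the study's list. It read 5.77, 5.98 and 5.07 in males, against 4.62, 4.10 and 4.48 in females, a difference of 1.20 (2.30-fold). The order of the males was the same as on the first probe set, and the gap between the lowest male and the highest female narrowed to 0.44. All 3 females and 1 male lay in the low range there.

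PENK, the other peptide precursor, went the opposite way. It read 6.09, 6.03 and 7.15 in males, against 8.22, 9.79 and 9.44 in females. Male 3 was the highest male and female 1 the lowest female, 1.07 apart. The means were 6.42 ± 0.63 in males and 9.15 ± 0.82 in females (SD, n = 3 each), a difference of -2.73 (6.62-fold lower in males), and leaving out female 1 widened it to -3.19.

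The calcium sensors also split. VSNL1 read 9.88, 9.16 and 8.72 in males, against 5.68, 5.15 and 4.02 in females. The sexes were 3.04 apart at their closest, and 2 of 3 females were in the low range. The means were 9.25 ± 0.59 and 4.95 ± 0.85 (male and female, SD, n = 3 each), a difference of 4.31 (19.8-fold), and 3.84 (14.3-fold) without female 3. KCNIP4 read 4.86, 5.01 and 4.71 in males, against 6.54, 6.92 and 6.62 in females. All 3 males were in the low range and no female was, and the closest male and female values were 1.53 apart. Its difference of -1.83 (3.56-fold lower in males) came with small spreads, 0.15 in males and 0.20 in females (SD).

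KCNK1, the potassium leak channel, was also lower in males. It read 6.63, 5.55 and 5.23 in males, against 7.70, 8.21 and 8.31 in females, a difference of -2.27 (4.81-fold lower in males). Male 1 stood above the other males by more than 1 unit, and only 1 male value was low. Without female 3, the highest female, the difference was -2.15. GABRB2 read 8.58, 8.46 and 7.49 in males, against 5.28, 5.41 and 5.77 in females, a difference of 2.69 (6.44-fold). Male 3 was again the lowest male, 1.72 above the highest female, which here was female 3. In females 2 of 3 values were in the low range, and without female 3 the difference was 2.83.

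The synaptic proteins were both higher in males with little spread. RIMS2 read 7.09, 7.17 and 6.72 in males, against 5.25, 4.80 and 5.10 in females, a difference of 1.94 (3.85-fold), with all 3 females in the low range. LRRTM4 read 7.53, 7.32 and 7.23 in males, against 5.90, 5.37 and 5.57 in females, a difference of 1.75 (3.36-fold), with 1 female in the low range. The closest male and female values were 1.47 apart for RIMS2 and 1.33 for LRRTM4.

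**Figure D1:**
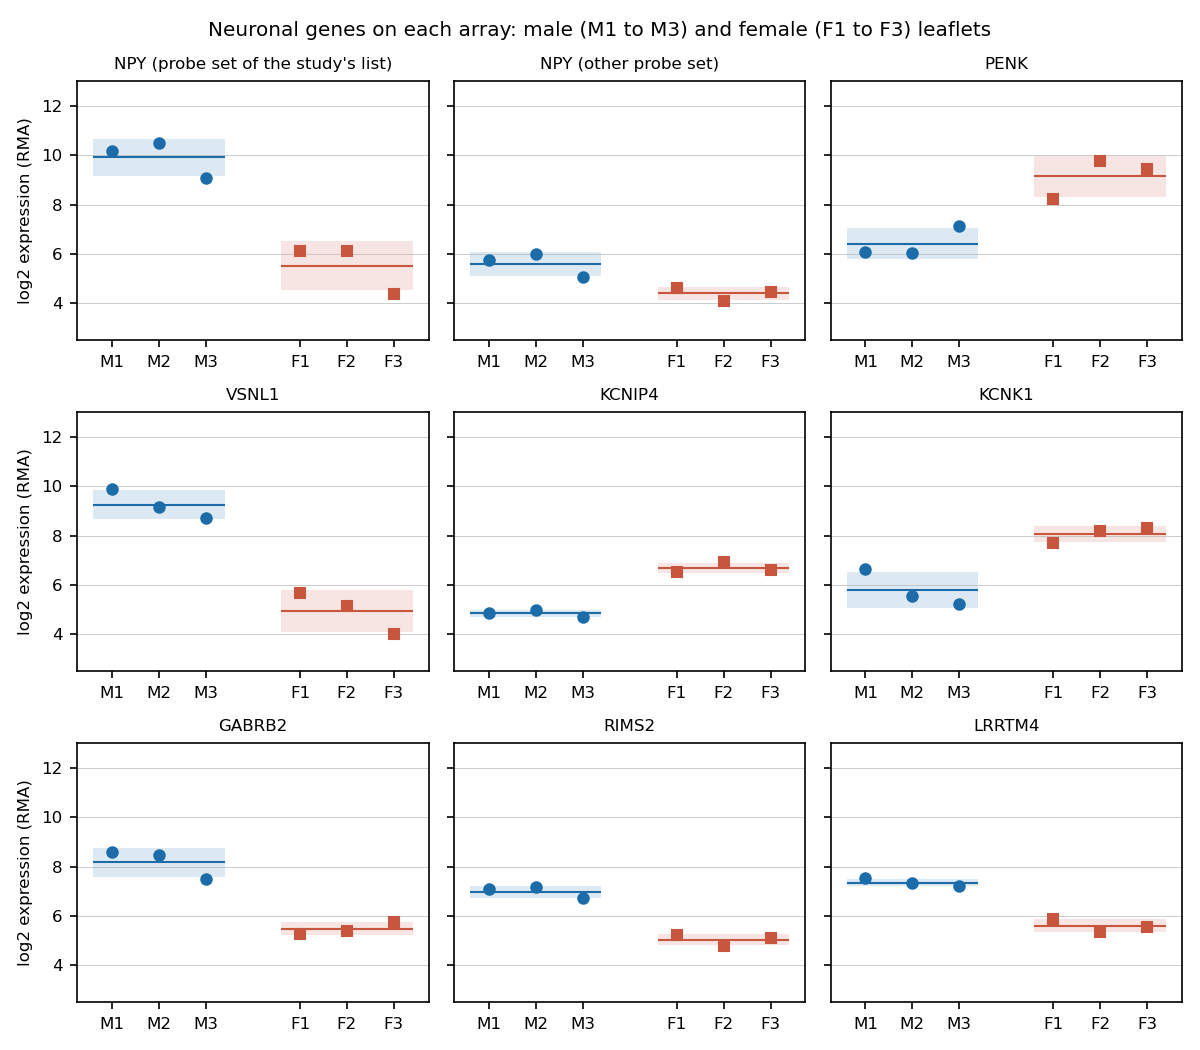
Log2 RMA expression of the 9 probe sets on each array, males (M1 to M3, blue circles) left of females (F1 to F3, red squares). Lines are group means and bands ± 1 SD (n = 3 each), and levels are comparable within a panel only. No male value overlaps a female value in any panel, and M3 is the male nearest the females for NPY, VSNL1, GABRB2, RIMS2 and LRRTM4.

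Of the 8 probe sets on the study's list 5 were higher and 3 lower in males, and all 9 probe sets had male and female values that did not overlap. Over all 23999 probe sets other than controls, 22.4% had no overlap, 11.1% with the males above and 11.4% with the males below. In the limma fit over all of them, 6 of the 8 genes passed a Benjamini-Hochberg adjusted p of 0.05 with at least a 2-fold difference (all but PENK and KCNK1), where 0.304% of all probe sets passed. With a filter that kept the 10% of probe sets with the highest coefficient of variation all 8 passed, as did 7.6% of those tested. The genes entered through that same contrast, so these counts carry no information of their own.

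The 8 genes varied in how far animals of the same sex lay apart. The pooled within-sex SD was 0.89 for NPY, 0.73 for PENK and 0.73 for VSNL1, above that of 99.4%, 98.7% and 98.7% of all probe sets. KCNK1 (0.57) and GABRB2 (0.46) followed, above 97.0% and 94.5%. KCNIP4 (0.17), LRRTM4 (0.22) and RIMS2 (0.24) lay at 52.7%, 67.3% and 72.1%, nearer the middle of the array. The genes with the widest sex differences were thus also among the most variable between animals of one sex.

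Male 3 was the lowest male for all 5 genes that were higher in males. Over the 2655 probe sets higher in every male, male 3 was the lowest in 54.8%. For the 3 genes lower in males, female 1 was the lowest female each time, as in 42.4% of the 2728 probe sets lower in every male, while the male nearest the females was male 1 for KCNK1, male 2 for KCNIP4 and male 3 for PENK. Leaving out male 3 moved the difference of NPY to 4.82, of GABRB2 to 3.03 and of PENK to -3.09. The genes with higher male values did not share 1 order in the females: female 3 was the lowest female for NPY and VSNL1, and the highest for GABRB2.

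Other genes of the same families were read to see how far they differed between the sexes. Of 356 genes on 8 lists of neuropeptides, their processing and receptors, calcium sensors, GABA signaling, exocytosis, synaptic adhesion and potassium channels, 109 were measured under an annotated name, 4 of them among the 8 genes. Of the remaining 105, limma called 0 as higher and 0 as lower in males at an adjusted p of 0.05 and 2-fold, and 21 had an unadjusted p under 0.05, against 4057 of 23999 over the array. The median log2 difference was 0.00 for the 105 genes and -0.01 over all probe sets, the mean was higher in males for 50 genes and lower for 55, and 24 (22.9%) had values without overlap, close to the array's 22.4%. The counts per list below are to be read against that 22.4%, and several lists hold few genes.

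Among 25 other neuropeptides and secretory granule proteins 3 had no overlap and 2 an unadjusted p under 0.05. PCSK1N, a granule protein that inhibits a prohormone convertase, differed by -0.53 (limma adjusted p = 0.18), and SCG2, the precursor of secretoneurin, by -0.82 (adjusted p = 0.24). PDYN, the precursor of the dynorphins, differed by 0.18 with overlapping sexes. SST, the somatostatin precursor, differed by 1.14 through male 1 alone, with the other 5 arrays in the low range. None of these passed the threshold.

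Of 17 processing enzymes, receptors and peptidases 5 (29.4%) had no overlap. DPP4, a membrane peptidase that clips the end of neuropeptide Y, read 10.80, 9.59 and 8.53 in males, against 6.91, 7.19 and 5.28 in females. The difference was 3.18 (9.04-fold) with an adjusted p of 0.12 in limma, and 2.59 without female 3. Male 1 was the highest and male 3 the lowest male, as for VSNL1. DPP4 is also on the study's list, so this is not evidence apart from it.

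The NPY receptor NPY1R read 5.61, 5.46 and 4.88 in males, against 6.42, 6.61 and 5.89 in females. All males were below all females, opposite to NPY itself, with a difference of -0.99 (adjusted p = 0.15 in limma, so not called), and -1.19 without female 3. NPY2R was low on all 6 arrays and differed by -0.02. The opioid receptor gene OPRM1 was low on 5 of 6 arrays and differed by 0.02, and OPRD1 differed by 0.13 on 1 probe set and -0.09 on the other. PAM, which amidates peptides such as neuropeptide Y, differed by -0.43 (adjusted p = 0.19). The convertases that cut the precursors differed by -0.24 (PCSK1, low on all 6 arrays) and 0.09 (PCSK2). NPY5R, OPRK1 and the enkephalin-degrading enzyme gene MME were not analysed here.

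Among 8 other calcium sensors and buffers 2 had no overlap. The calmodulin genes CALM2 and CALM3 differed by 0.13 and 0.04, the 6 probe sets of CALM3 ranging from -0.27 to 0.42. CALML4, a calmodulin-like protein, differed by 0.70 (adjusted p = 0.19), and NCALD, a neuronal calcium sensor of the same branch as VSNL1, by -0.34 (adjusted p = 0.29). HPCAL1, of the same list, went the way of VSNL1, with a difference of 0.62 and no overlap (limma adjusted p = 0.23, not called). The relatives of KCNIP4 were KCNIP2 at -0.32, with overlapping sexes, and KCNIP1 at -0.14, low on all 6 arrays. The channel subunits that KCNIP4 binds (KCND2, KCND3) and their partners DPP6 and DPP10 were not analysed here.

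Of 19 other potassium channels 3 had no overlap. KCNN4, a calcium-activated channel, read 8.13, 8.16 and 8.25 in males, against 7.29, 7.28 and 7.62 in females. With a difference of 0.78 and an adjusted p of 0.067 in limma it had the lowest adjusted p of all 105 genes, still short of the threshold. KCNE1, an auxiliary channel subunit, differed by -0.18 and KCNA6 by -0.21, both with overlap.

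The 9 other GABA genes named by the annotation had 0 without overlap and 0 with an unadjusted p under 0.05. GABARAP, GABARAPL2 and GABARAPL1, better known for autophagy than for receptor traffic, differed by -0.01, -0.09 and -0.09. GABRA4, an alpha subunit of the receptor, read 9.67, 8.50 and 7.82 in males, against 7.80, 8.04 and 7.36 in females, a difference of 0.93 with overlap between male 3 and female 2. GAD2, which makes GABA, differed by -0.21.

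The active zone list had 22 other genes, 9 without overlap (40.9%, against 22.4% over the array, 5 higher and 4 lower in males) and 0 called. SYT1, the calcium sensor of vesicle fusion, had the largest positive difference. It read 6.95, 6.49 and 9.29 in males, against 6.02, 5.75 and 5.52 in females. Male 3 was far above the other males. The difference was 1.81 (adjusted p = 0.24), and another probe set of SYT1 differed by 0.13. SYPL1, a synaptophysin relative found outside neurons, differed by 0.40 and PPFIA3, a liprin of the active zone, by -0.40 (adjusted p = 0.19 and 0.20).

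Of 5 other synaptic adhesion and scaffold genes 2 had no overlap. NCAM1, a homophilic cell adhesion molecule, read 9.71, 10.25 and 10.73 in males, against 11.12, 11.12 and 11.31 in females, a difference of -0.95 (adjusted p = 0.16), and its 4 probe sets ranged from -0.95 to -0.51. HOMER2, a postsynaptic scaffold, differed by -0.75 (adjusted p = 0.22) on its brightest probe set, and its 3 probe sets ranged from -0.75 to -0.09.

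**Figure D2:**
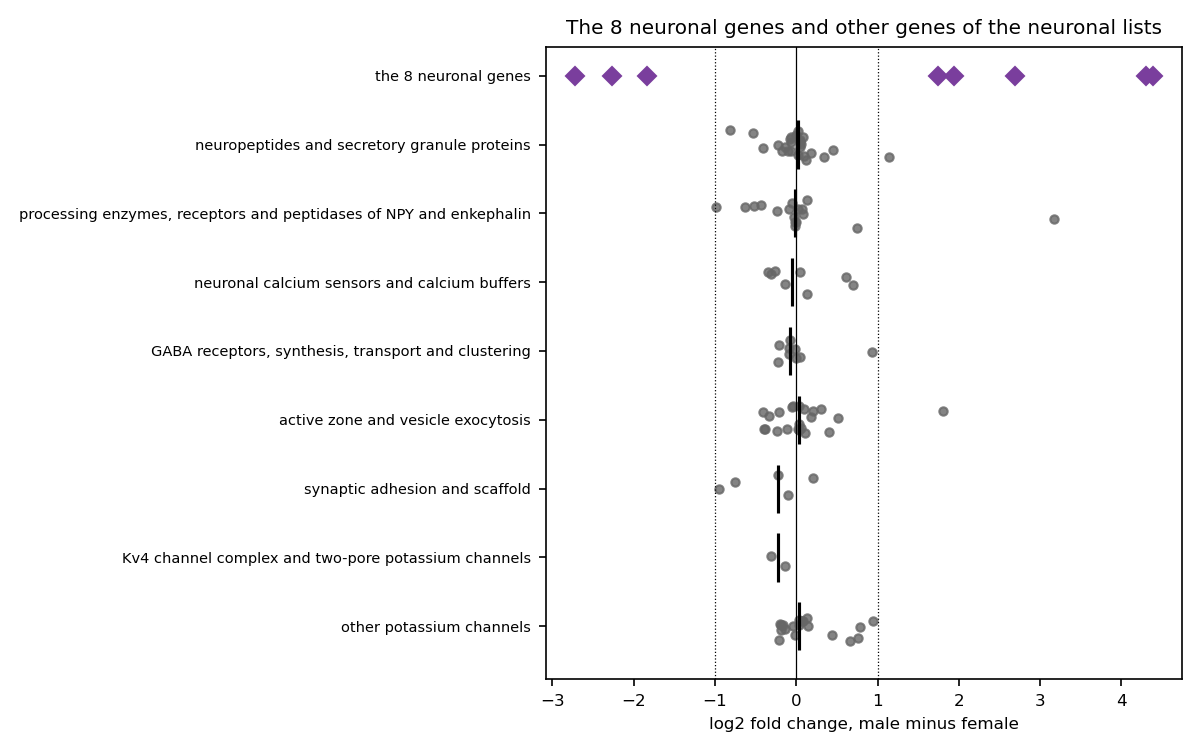
Log2 fold change, male minus female, of the 8 genes (purple diamonds, probe sets of the study's list) and of the 105 other measured genes of the 8 lists (gray circles, 1 per gene, probe set with the highest mean). Black bars are list medians and dotted lines mark 2-fold. The 8 genes lie outside the dotted lines because they were chosen from sex-differing probe sets, while DPP4 at 3.18 and SYT1 at 1.81 are the farthest of the other genes.

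The neighbors of each of the 8 genes along the chromosome were looked up in the RefSeq order of protein-coding genes (assembly Sscrofa11.1), 3 on each side, a look-up added after earlier values were seen. MYCN, a transcription factor gene 3 places from VSNL1, read 8.28, 9.00 and 7.59 in males, against 6.43, 5.63 and 5.49 in females, a difference of 2.44 (adjusted p = 0.064 in limma). MYCN was singled out after its values were seen, and it too is on the study's list. Among genes directly beside others of the 8, the difference was 0.19 for IMPAD1 (beside PENK), 0.26 for DCAF13 (beside RIMS2), and 0.19 and -0.32 for PACRGL and ADGRA3 (on either side of KCNIP4) on their brighter probe sets, and none of these was called.

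**Figure D3:**
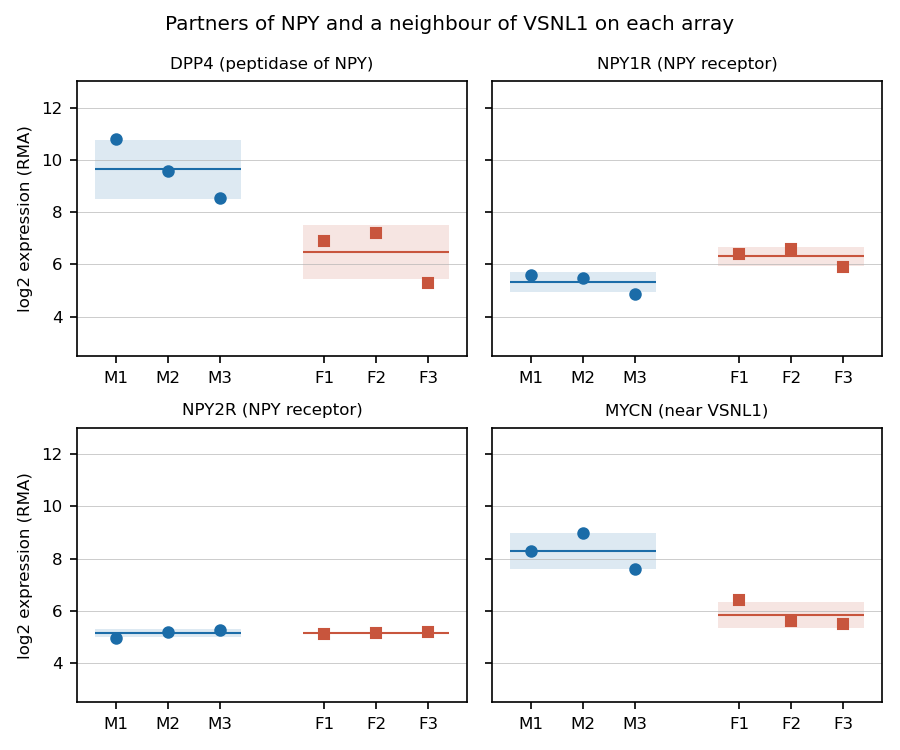
Log2 RMA expression on each array of genes that act with or lie near the neuronal genes, males (M1 to M3) left of females (F1 to F3), with group means and ± 1 SD bands (n = 3 each). DPP4 and MYCN are higher in every male, NPY1R is lower in every male, and NPY2R does not separate the sexes.

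The labelled tissue was checked against markers of the cells it could hold. Of 11 measured pan-neuronal markers 0 were called. SNAP25, NEFL and STMN2 were low on all 6 arrays, with means of 4.09, 4.68 and 4.25 in males and 4.06, 4.74 and 4.18 in females. ELAVL4 was low on 2 arrays, and SYN1, GAP43, MAP2, ENO2, UCHL1 and THY1 on none, with SYN1 averaging 6.29 in males and 6.40 in females. SYT1, low on 1 array, had the largest difference of the 11 (1.81) and was higher in every male, with 9.29 in male 3. The summed linear level of the 11 ran from 15097 to 20971 in males and from 19960 to 23605 in females, overlapping, but 88.1% to 92.3% of each sum was THY1, which fibroblasts also express. Without THY1 it ran from 1481 to 2494 in males and from 1606 to 2063 in females. The name neuronal here describes where the genes are best known, not the cells measured. Of noradrenergic markers, 5 were measured, 0 were called, and their sum was 592 to 879 in males and 772 to 1255 in females. GATA3 alone made up 55.5% to 77.0% of each sum. Without GATA3 the sums were 256 to 317 in males and 289 to 317 in females, overlapping. The 7 Schwann and glial markers, S100B and MBP among them, summed to 5812 to 8273 in males and 5881 to 7756 in females, and 0 were called. Without S100B, the gene with the largest share, the sums did not overlap, at 3159 to 4234 in males and 2118 to 2973 in females.

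Endothelial markers were mostly higher in males, although the leaflets had been scraped. Of 15 measured, 12 had a higher mean in males, 6 were higher in every male (11.1% over the array) and 0 were called, with a median difference of 0.70. PECAM1 averaged 13.20 in males and 12.09 in females (limma adjusted p = 0.14). CDH5 differed by 0.90 and VWF by 0.38, both with overlapping sexes (limma adjusted p = 0.35 and 0.79). The highest VWF value was in female 2. ICAM2, with the lowest adjusted p of the list (0.075 in limma), averaged 9.78 in males and 8.08 in females. It is also on the study's list of sex-differing genes. The 15 markers summed to 34777, 27218 and 17194 in males 1, 2 and 3. In females 1, 2 and 3 the sum was 13162, 19739 and 12333. Male 3 was thus the lowest male, as for the 5 genes that were higher in males, and female 2 overlapped the males. Without male 3, 10 markers were higher in every male, and without female 2, 13 were, where 18.4% of all probe sets were in either case. Their part in the differences of the 8 genes was not tested. Cardiomyocyte markers were dim, 8 of 14 with a mean in the low range, and summed to 1018 to 1207 in males and 925 to 1003 in females without overlap. Without PLN these sums overlapped, at 784 to 847 in males and 805 to 883 in females. The 11 interstitial cell and fibroblast markers, the cells the tissue should hold, summed to 122998 to 136084 in males and 133518 to 151493 in females.

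**Figure D4:**
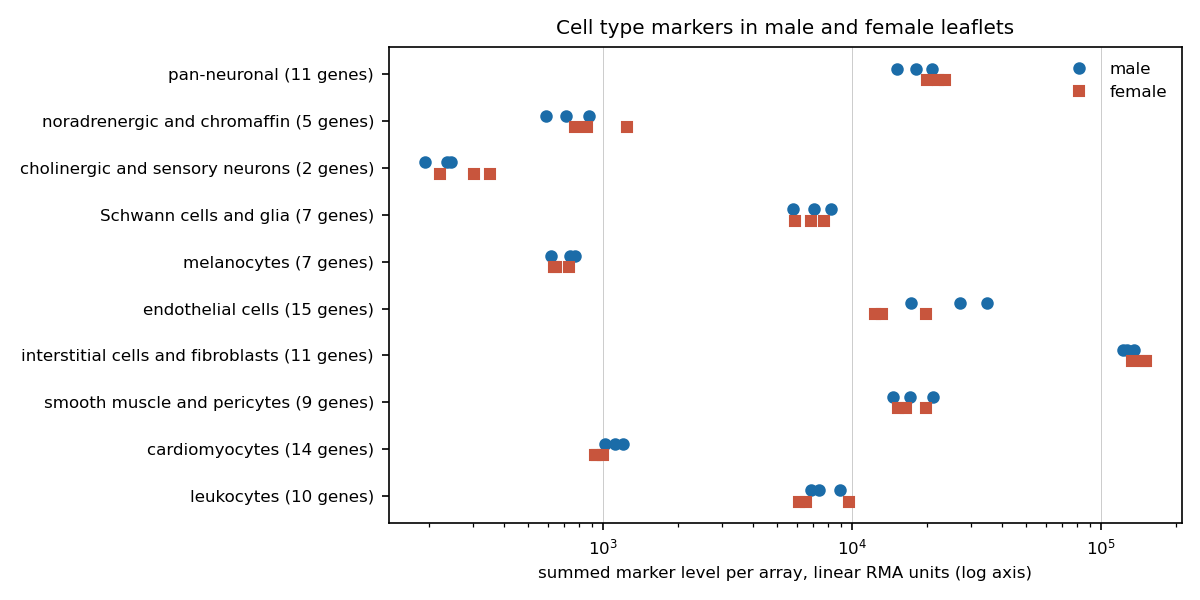
Summed linear RMA level of each list of cell type markers on each array (log axis), males (blue circles) above females (red squares) in each row. Only the cardiomyocyte sums, which are low, do not overlap between the sexes, and the endothelial sums of 2 males exceed all females while male 3 (17194) lies under female 2 (19739).

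The genes whose pattern over the 6 arrays was most like each of the 8 were found by Pearson correlation over 1369 annotated probe sets with a range of at least 1. Both sexes entered, so the values hold the sex difference, and all arrays share 1 normalization. SDC2, a heparan sulfate proteoglycan of the cell surface, was the most like VSNL1 (r = 0.998) and was also near NPY (r = 0.986), for which SORBS2 came first (r = 0.987). For PENK the most like was SLPI, a secreted protease inhibitor (r = 0.990). For GABRB2 LOC100158115 came first (r = 0.988), then CALCRL, a receptor of the adrenomedullin and calcitonin gene-related peptide family (r = 0.986). CALCRL and SORBS2 are also among the genes that the study reported as differing between the sexes. PLPPR5, a membrane protein related to lipid phosphatases, was near both RIMS2 (r = 0.993) and LRRTM4 (r = 0.995), and PMM1 was the most like KCNIP4 (r = 0.982). KCNK1 had the fewest probe sets like it, 1 above 0.95 (FZD5, a Wnt receptor, r = 0.955), where VSNL1 had 46 and NPY 39.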

How the data were processed

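Total RNA (400 ng) of scraped leaflets had been amplified and labelled. The product was hybridized to Affymetrix Porcine Genome Arrays, 1 pig per array. The authors computed log2 expression with RMA (R 2.12.0 in the submitters' processing notes), and these deposited log2 values were analysed as they stood. Precision is limited by having 3 arrays per sex. The members and gene lists were chosen with earlier results of these data known.

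The table held 24123 probe sets, 124 of them controls. The annotation named 1 gene for 10069 of the others, several for 198 and none for 13732. The study's list named 183 probe sets. Lists were matched to the annotation alone, 1 probe set per gene (the highest mean), since the study's list names only probe sets that differed. Columns of the authors' own comparisons were not used.

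Male minus female differences over 23999 probe sets were fitted with limma 3.58.1 in R 4.3.3 (lmFit and eBayes, no covariate) with calls at 2-fold or more and a Benjamini-Hochberg adjusted p below 0.05. The fit was tested on simulated data. The study also filtered on the coefficient of variation (CV) without naming the share kept, so a filter keeping the top 10% was an alternative. Others were the replicate block, an intensity trend, a filter on dim probe sets, no minimum fold, median centring, other probe set choices, and leaving out each array. Named genes were all member probe sets, fixed partners, the 3 brightest genes of each list and its largest rise and fall among genes with a mean over the 25th percentile of all means, the first 3 markers of each cell type, and the 2 annotated genes most like each member. SST and HPCAL1 were named after their values were seen. Some fixed partners are not reported here. Other genes of a list were named where the text says so or where they belong to a marker list. Figures were drawn with matplotlib 3.10.9.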

Additional observations from a re-analysis of the deposited data

How the results depend on the processing

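The differences of the 9 probe sets kept their sign under every alternative run for them (median centring, sex medians, the replicate block, and leaving out each array). Counts over the array moved more. Of all probe sets, 40 were called higher and 33 lower in males. These counts were 103 and 101 with the replicate block, 111 and 72 with the CV filter (2407 probe sets tested), and ranged from 7 to 169 higher and from 6 to 116 lower when 1 array was left out. They were highest without male 3 (169 and 116) and were 11 and 10 without male 1, 7 and 6 without male 2, 25 and 15 without female 2, and 10 and 10 without female 3. Counts stayed within 1.5 times of these under the intensity trend, the dim filter, median centring and no minimum fold. Of the 105 other neuronal genes 0 were called in either direction. With the replicate block and with the CV filter 1 was called higher (DPP4). Leaving out 1 array gave 0 to 1 higher and 0 to 1 lower, both without male 3 (DPP4 higher, NCAM1 lower). With the names of the study's list added, 1 was called higher and 1 lower. Replicate numbers are shared by the sexes in the titles only. Deviations of same-numbered arrays correlated at -0.10, 0.01 and 0.27, so the numbers were not taken to pair the animals. Dim values in males (KCNIP4) and females (RIMS2, VSNL1, GABRB2, the further NPY probe set) limit the size of those differences. The causes of these shifts were not tested.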

Other observations

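Some other neuronal genes varied widely between animals of the same sex. Of those given here, CCK and SCG5 had overlapping sexes, while SYT1 and KCNB2 were higher in every male. CCK, the precursor of cholecystokinin, a gut and brain peptide, read 8.15, 7.13 and 9.28 in males, against 9.52, 7.06 and 7.92 in females, a difference of 0.02. The spread within each sex (SD 1.08 in males and 1.25 in females, n = 3 each) was wider than that of NPY. Male 3 had the highest male value of CCK and also stood apart for SYT1 (9.29, against 6.95 and 6.49 in the other males), SCG5, a chaperone of a prohormone convertase (7.88, against 6.51 and 6.74), and KCNB2, a voltage-gated potassium channel (7.05, against 5.80 and 5.80). Other probe sets of SYT1 and KCNB2 differed by 0.13 and -0.16. The female values were 5.52 to 6.02 for SYT1, 6.46 to 6.67 for SCG5 and 4.91 to 5.51 for KCNB2, so male 3 was the array farthest from the females for these 3 genes, where it was the nearest male for the 5 neuronal genes that were higher in males. TYR, the pigment enzyme of melanocytes, read 5.99, 6.04 and 6.05 in males, against 6.20, 5.94 and 7.63 in females, with only female 3 apart.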
